A study of Danio rerio with 12 samples.

Results

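What changed in sibling larvae of zebrafish between 5 and 7 days post fertilization (dpf) was described across all genes, from 6 of the 12 libraries of the series: 3 of siblings at 7 dpf and 3 of siblings at 5 dpf. The siblings were AB-strain larvae given as ercc2/xpd+/+ & ercc2/xpd+/-, that is, wild type and heterozygous larvae pooled together, and the share of each genotype in a pool was not stated. The other 6 libraries were of ercc2/xpd-/- larvae of the same ages, with 3 at 7 dpf and 3 at 5 dpf, and were used where the age change in siblings was set against the age change in mutants. Each library was made from total RNA of 30 pooled whole larvae, so a value averages over every organ, and fewer cells of a type and less RNA per cell of that type cannot be told apart. The age and the day of collection cannot be told apart either, since each age has 1 set of samples, and neither the hour of collection nor feeding was stated for them. The genes were chosen by level alone: of 37541 listed identifiers, 22060 reached 0.5 FPKM in 3 or more of the 6 sibling libraries and were tested.

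At these ages a zebrafish larva passes from living on yolk to living on what it catches. The yolk is packed into lipoproteins by the layer around it and by the liver, the gut and pancreas take over digestion, and the larva begins to hunt by sight. Cell division, which builds the embryo, then becomes restricted to growth zones of the brain, eye, gut and skeleton. FPKM, the unit of the deposited values, is the number of fragments or reads of a gene scaled by its length and by the depth of the library. Changes are given as the log2 change at 7 dpf relative to 5 dpf, computed on log2(FPKM + 0.5), so the changes of genes with low values are understated.

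The files list FPKM in steps of whole reads, from which 13403615 to 14902928 reads were recovered per sibling library. The first principal component held 58.8% of the variance and separated the 2 ages, and correlations of log2 values across genes were 0.965 to 0.972 within 7 dpf, 0.954 to 0.965 within 5 dpf and 0.895 to 0.933 between the ages. Replicate 2 at 5 dpf stood apart, with 7.84% of its reads on mitochondrial genes against 4.16% to 5.38% in the other 5 sibling libraries and the lowest library weight, 0.473. Calls of named genes that were lost without it are marked, and for many gene lists counts without a single library are given beside the list. ERCC2, the gene mutated in the series, was at 4.26 to 6.38 FPKM in the siblings at 7 dpf and 3.78 to 5.23 FPKM at 5 dpf, and at 2.56 to 3.57 FPKM in the 6 mutant libraries. Several genes that every cell uses, such as the proteasome subunit PSMA5 and the RNA polymerase subunit POLR2F, were listed at 0 in all 6 sibling libraries, while an unnamed model on an alternate sequence of chromosome 11 that starts within 1 kb of PSMA5 was at 14.1 to 61.1 FPKM. Of the tested identifiers, 2833 were on such alternate sequences and 4337 were unnamed models, and all tested identifiers are counted as genes below. Symbols are written as a separate gene name reference lists them, some of them in the capitals of human genes. A gene ID is added where a symbol is listed more than once. A named gene listed at or near 0 was therefore not read as one that is not expressed.

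Between 7 and 5 dpf, 2467 genes rose and 2640 fell in siblings (limma, Benjamini-Hochberg adjusted p under 0.05), which is 11.2% and 12% of the 22060 genes tested and 23.2% in all. A change of at least 2-fold was found in 1062 of the genes that rose and 1211 of those that fell, and of at least 4-fold in 114 and 174. In 42.5% of the tested genes the 3 libraries of each age did not overlap (4719 genes, 21.4%, with all 7 dpf libraries above, and 4656, 21.1%, with all below). From one age to the other, 210 genes were at 0.5 FPKM or more in all 3 libraries at 7 dpf and under it in all 3 at 5 dpf, and 288 genes showed the opposite, so these passed the filter through 1 age alone. Of the 16942 tested identifiers with a symbol, 1955 were called higher and 2273 lower. The median log2 change of all tested genes was 0.01. The split between higher and lower calls depended on how libraries are scaled: 1488 genes rose and 3285 fell when the values were scaled by the total of recovered reads, 1562 and 2517 as TPM, and 1583 and 3290 by voom on the reads, which moved the median of all genes to −0.10, −0.03 and −0.12. Scaling without mitochondrial genes and the 10 genes with most reads, a choice made after seeing the data, gave 1707 and 3133. Without replicate 2 at 5 dpf, 1999 genes rose and 1936 fell. Without replicate 2 at 7 dpf, 1308 genes rose and 1571 fell. Without replicate 1 at 7 dpf the counts were 1517 and 1751, and without replicate 3 at 7 dpf 1654 and 1757. A call described as lost without a library or under a setting had an adjusted p of 0.05 or more there.

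**Figure D1:**
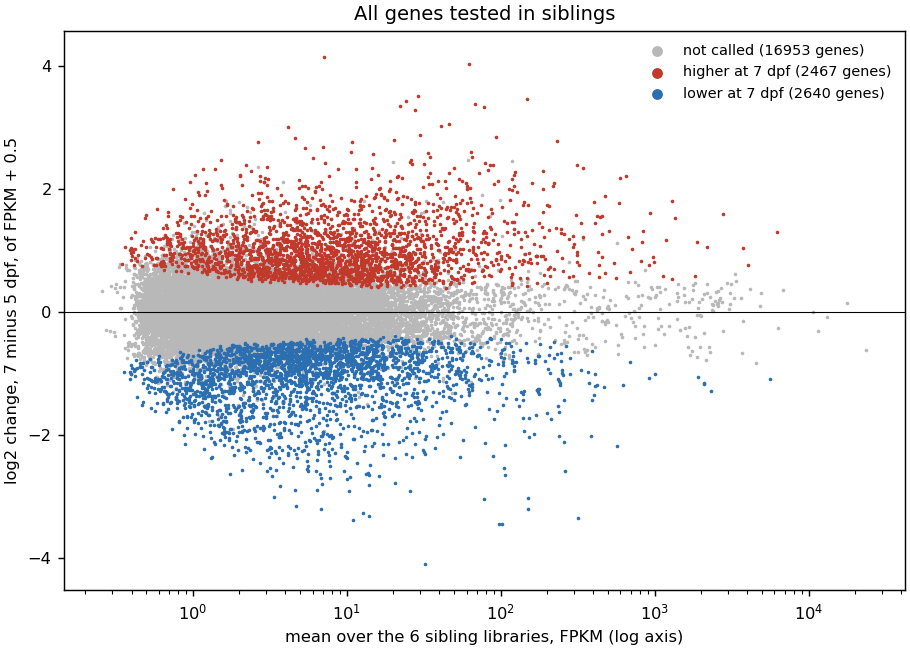
Each point is 1 of the 22060 genes tested in siblings, by its mean FPKM over the 6 sibling libraries (log axis) and its log2 change of FPKM + 0.5 at 7 dpf minus 5 dpf. The 2467 genes called higher at 7 dpf (red) and the 2640 called lower (blue) are found over the whole range of mean level.

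FBXO32, KLHL38 and PSME4 were among the 15 largest increases, and the first 2 are neighbours on chromosome 16. FBXO32 (atrogin-1, GRCz11 chr16:25259313-25272633), the muscle ubiquitin ligase of atrophy, was at 137, 146 and 141 FPKM at 7 dpf, against 13.5, 7.84 and 23.6 FPKM at 5 dpf (log2 change 3.33, SE 0.33, adjusted p = 7.11e-04). All 3 libraries at 7 dpf lay several-fold above the highest at 5 dpf, replicate 3. KLHL38 (chr16:25245857-25250414), a kelch protein of muscle, was at 76.3, 73.7 and 70.06 FPKM at 7 dpf, against 9.17, 5.98 and 11.6 FPKM at 5 dpf (log2 change 3.02, SE 0.22, adjusted p = 3.63e-04). PSME4 (chr13:35689749-35744963), which encodes the proteasome activator PA200, was at 32.7, 48.9 and 41.5 FPKM at 7 dpf, against 3.14, 3.196 and 4.35 FPKM at 5 dpf (log2 change 3.35, SE 0.19, adjusted p = 3.51e-04).

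The cargo receptor genes calcoco2 and CALCOCO1, both of selective autophagy in mammals, were both higher. calcoco2 (chr12:20641102-20652923) was at 41.6, 57.4 and 63.3 FPKM at 7 dpf, against 4.14, 3.36 and 5.31 FPKM at 5 dpf (log2 change 3.52, SE 0.21, adjusted p = 3.51e-04), and the gene overlaps stx4 on the same strand, whose mean was 6.26 FPKM. CALCOCO1 (chr11:2111582-2131280) was at 48.9, 51.0 and 50.8 FPKM at 7 dpf, against 5.05, 3.09 and 6.53 FPKM at 5 dpf (log2 change 3.29, SE 0.23, adjusted p = 3.51e-04). The gene listed as STYXL2 (gene ID ENSDARG00000099889, on a sequence outside the assembled chromosomes), a pseudophosphatase of muscle sarcomeres, was at 282, 261 and 269 FPKM at 7 dpf, against 19.5, 20.1 and 35.0 FPKM at 5 dpf (log2 change 3.47, SE 0.22, adjusted p = 3.51e-04). txlnbb, a taxilin of the muscle-type beta class, was at 439, 411 and 351 FPKM at 7 dpf, against 55.7, 36.8 and 92.4 FPKM at 5 dpf (log2 change 2.78, SE 0.30, adjusted p = 9.90e-04). In each of these 4 genes the lowest library at 7 dpf was above the highest at 5 dpf.

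The largest increase under the naming rule was that of the hairpin gene dre-mir-29b-1 (chr6:47467910-47467992), whose mature miRNA in mammals represses collagen genes. It was at 95.1, 144 and 111 FPKM at 7 dpf, against 3.91, 6.48 and 10.8 FPKM at 5 dpf (log2 change 4.04, SE 0.32, adjusted p = 4.32e-04), and these libraries count the transcript over a model of 83 bases and not the mature miRNA. CYP24A1, which degrades active vitamin D, was at 63.9, 78.0 and 103 FPKM at 7 dpf, against 9.03, 4.28 and 19.6 FPKM at 5 dpf (log2 change 3.05, SE 0.46, adjusted p = 0.00337). The inhibitors of cytokine signaling SOCS1 and SOCS3 were both higher at 7 dpf, with replicate 3 the highest library of 5 dpf. SOCS1 was at 53.3, 66.5 and 36.5 FPKM at 7 dpf, against 3.65, 5.59 and 13.0 FPKM at 5 dpf (log2 change 2.87, SE 0.41, adjusted p = 0.00275). SOCS3 (gene ID ENSDARG00000025428) was at 117, 225 and 126 FPKM at 7 dpf, against 5.70, 23.7 and 58.8 FPKM at 5 dpf (log2 change 2.85, SE 0.71, adjusted p = 0.0241, lost without any 1 library of 7 dpf or without replicate 2 at 5 dpf). The long non-coding RNA gene lnc.85 was at 33.0, 11.8 and 12.8 FPKM at 7 dpf, against 2.54, 0.753 and 4.09 FPKM at 5 dpf (log2 change 2.76, SE 0.52, adjusted p = 0.00840), and its model overlaps unnamed models on the same strand. spsb3b, a SOCS-box gene, was at 12.8, 12.7 and 11.96 FPKM at 7 dpf, against 1.39, 1.65 and 1.52 FPKM at 5 dpf (log2 change 2.68, SE 0.14, adjusted p = 3.51e-04). The remaining genes among the 15 largest increases were hpda, of the liver, and nr1d4b, of the clock.

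Among the 15 genes with the largest decreases, 8 are genes of photoreceptors or of their visual cycle (among them OPN1SW, opn1mw1, opn1lw2, GNGT2, gnb3b, GNAT2 and rbp3) and 4 of dividing cells (2 genes listed as RRM2, TYMS and MAD2L1). The other 3 were apoa1a, SAE1 and rn7sl1. SAE1, which encodes a subunit of the SUMO-activating enzyme, was at 1.44, 1.72 and 0.896 FPKM at 7 dpf, against 14.1, 14.7 and 8.53 FPKM at 5 dpf (log2 change −2.79, SE 0.26, adjusted p = 5.69e-04). rn7sl1, the RNA of the signal recognition particle, was at 0.764, 1.55 and 2.35 FPKM at 7 dpf, against 5.22, 34.5 and 32.5 FPKM at 5 dpf (log2 change −3.27, SE 0.66, adjusted p = 0.0109), with replicate 1 at 5 dpf below the other 2 libraries of its age.

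**Figure D2:**
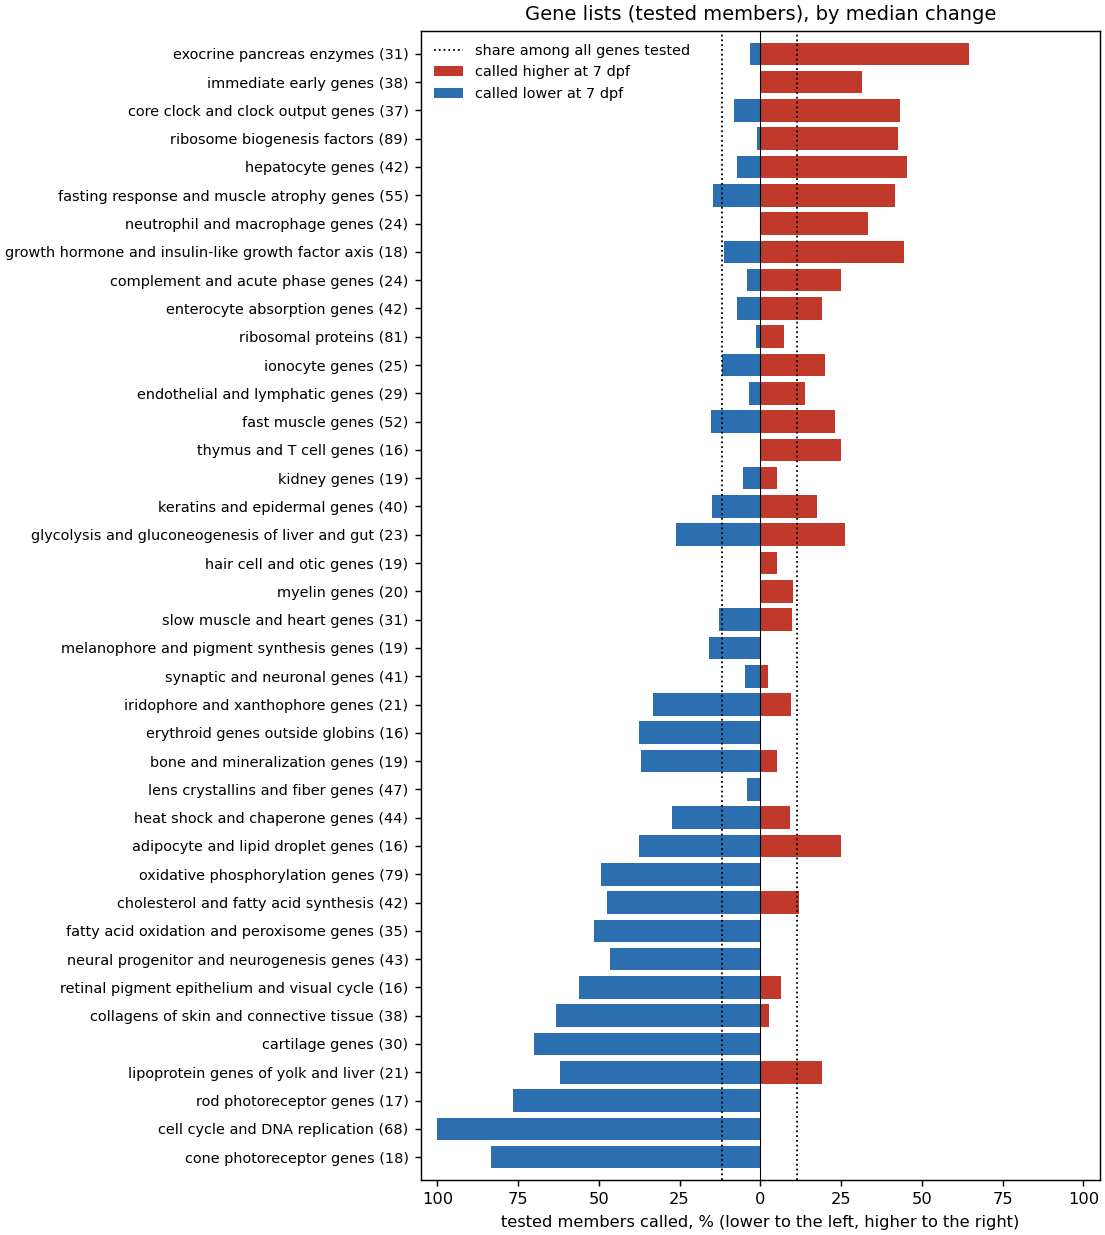
Bars give the percentage of tested members of each gene list called higher (red, right) or lower (blue, left) at 7 dpf in siblings, for lists with at least 15 tested members (number in parentheses), ordered by median log2 change. Dotted lines mark the share among all genes tested, 11.2% higher and 12% lower.

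Genes of DNA replication and mitosis fell, where 12% of all genes tested were called lower. Of 74 matched members 68 passed the filter, and 68 of them were called lower at 7 dpf, with a median log2 change of −1.96 beside 0.01 for all genes tested. PCNA, the sliding clamp of DNA polymerase, was at 27.8, 30.2 and 29.4 FPKM at 7 dpf, against 205, 192 and 159 FPKM at 5 dpf (log2 change −2.64, SE 0.14, adjusted p = 3.51e-04). The proliferation marker mki67 was at 2.60, 3.02 and 2.74 FPKM at 7 dpf, against 13.8, 10.7 and 15.15 FPKM at 5 dpf (log2 change −2.05, SE 0.17, adjusted p = 4.43e-04). The topoisomerase gene TOP2A was at 1.64, 1.93 and 2.01 FPKM at 7 dpf, against 12.5, 9.88 and 11.2 FPKM at 5 dpf (log2 change −2.31, SE 0.15, adjusted p = 3.51e-04). The 2 ages were far apart in every library for these defining genes, and the spread within an age was small beside the gap.

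Other large falls in that list were in genes that make DNA precursors or drive mitosis. TYMS, thymidylate synthase, was at 0.916, 0.805 and 1.0003 FPKM at 7 dpf, against 17.5, 10.502 and 10.28 FPKM at 5 dpf (log2 change −3.20, SE 0.22, adjusted p = 3.51e-04). RRM2, the small subunit of ribonucleotide reductase, has 2 entries. The one on chromosome 19 (gene ID ENSDARG00000078069) was at 1.03, 2.63 and 0.991 FPKM at 7 dpf, against 26.0, 22.0 and 13.2 FPKM at 5 dpf (log2 change −3.38, SE 0.34, adjusted p = 7.61e-04). The one on chromosome 20 (gene ID ENSDARG00000020711) was at 1.33, 0.849 and 2.25 FPKM at 7 dpf, against 14.6, 8.69 and 12.9 FPKM at 5 dpf (log2 change −2.70, SE 0.29, adjusted p = 9.90e-04). CDK1, the kinase that starts mitosis, was at 0.4996, 0.394 and 0.227 FPKM at 7 dpf, against 13.7, 3.65 and 3.47 FPKM at 5 dpf (log2 change −2.83, SE 0.46, adjusted p = 0.00461), with replicate 1 at 5 dpf well above the other libraries of that age. Its values at 7 dpf were all under 0.5 FPKM, so it passed the filter through 5 dpf alone. MAD2L1, of the spindle checkpoint, was at 0.609, 2.29 and 2.85 FPKM at 7 dpf, against 13.2, 15.3 and 12.5 FPKM at 5 dpf (log2 change −2.70, SE 0.38, adjusted p = 0.00253). Under the alternatives run, 64 to 68 members of the list were called lower and 0 higher, with 66 lower without replicate 2 at 5 dpf. With no filter 68 of 73 members were lower.

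Neural progenitor genes fell in part. Of 48 matched and 43 tested members 20 were called lower and 0 higher (median log2 change −0.61), beside 12% and 11.2% of all genes. Without replicate 3 at 5 dpf 2 were called higher, and without replicate 1 or 2 at 7 dpf 14 were called lower. FABP7, the fatty acid binding protein of radial glia, had the largest change and was at 31.0, 25.6 and 30.3 FPKM at 7 dpf, against 142, 172 and 134 FPKM at 5 dpf (log2 change −2.34, SE 0.15, adjusted p = 3.51e-04). The tubulin gene tubb5 was at 4.38, 5.44 and 7.41 FPKM at 7 dpf, against 18.5, 30.7 and 20.4 FPKM at 5 dpf (log2 change −1.92, SE 0.24, adjusted p = 0.00166). INSM1, a transcription factor of newborn neurons and endocrine cells, was at 3.25, 3.07 and 3.52 FPKM at 7 dpf, against 7.23, 9.70 and 9.93 FPKM at 5 dpf (log2 change −1.31, SE 0.16, adjusted p = 0.00164). SOX2, which maintains neural stem cells, was at 7.87, 7.28 and 8.29 FPKM at 7 dpf, against 15.8, 12.6 and 10.8 FPKM at 5 dpf (log2 change −0.69, SE 0.16, adjusted p = 0.0204, lost without replicate 1 or 2 at 7 dpf or without replicate 1 at 5 dpf). NEUROD4, a proneural factor, was at 0.810, 0.587 and 1.146 FPKM at 7 dpf, against 2.47, 2.62 and 3.39 FPKM at 5 dpf (log2 change −1.31, SE 0.22, adjusted p = 0.00469). The Notch target her4.1 was at 1.42, 1.04 and 1.61 FPKM at 7 dpf, against 1.95, 1.83 and 3.27 FPKM at 5 dpf and was not called (adjusted p = 0.109).

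Genes of mature neurons and glia mostly did not pass the test. In the synaptic list 1 of 41 tested members was called higher and 2 lower, beside 11.2% and 12% of all genes tested. The lower count was 0 without replicate 1 or 2 at 7 dpf or without replicate 2 at 5 dpf and 4 without replicate 1 at 5 dpf. CAMK2B, a kinase of synaptic plasticity, was higher, at 25.9, 25.5 and 23.6 FPKM at 7 dpf, against 15.7, 15.7 and 15.6 FPKM at 5 dpf (log2 change 0.66, SE 0.12, adjusted p = 0.00634). sypb, a synaptophysin of synaptic vesicles, was lower, at 1.66, 1.28 and 2.90 FPKM at 7 dpf, against 3.71, 8.19 and 6.14 FPKM at 5 dpf (log2 change −1.41, SE 0.32, adjusted p = 0.0175, lost without replicate 1 or 2 at 7 dpf or without replicate 2 at 5 dpf). SLC17A7, a vesicular glutamate transporter, was at 0.160, 0.162 and 0.694 FPKM at 7 dpf, against 0.886, 1.69 and 1.75 FPKM at 5 dpf (log2 change −1.24, SE 0.32, adjusted p = 0.0267, lost without replicate 1 or 2 at 7 dpf or without replicate 2 or 3 at 5 dpf). SNAP25 (gene ID ENSDARG00000020609) was at 14.3, 15.12 and 22.8 FPKM at 7 dpf, against 11.2, 17.1 and 15.3 FPKM at 5 dpf, with overlapping ages. SYT1, the calcium sensor of vesicle release, was at 6.80, 6.17 and 8.55 FPKM at 7 dpf, against 4.48, 9.02 and 7.36 FPKM at 5 dpf and overlapped too. In the myelin list 2 of 20 tested members were called higher and 0 lower, again beside 11.2% and 12% of all genes. Up to 2 were called lower under other settings. prx, periaxin of Schwann cells, was at 26.9, 23.8 and 22.9 FPKM at 7 dpf, against 10.4, 8.59 and 11.8 FPKM at 5 dpf (log2 change 1.22, SE 0.15, adjusted p = 0.00166). ASPA, which splits N-acetylaspartate in oligodendrocytes, was at 14.6, 14.1 and 14.6 FPKM at 7 dpf, against 4.29, 6.96 and 7.28 FPKM at 5 dpf (log2 change 1.2, SE 0.20, adjusted p = 0.00491). The myelin genes mbpa and plp1b had log2 changes of 0.34 (adjusted p = 0.0767) and 0.62 (adjusted p = 0.0947, called without replicate 2 at 5 dpf).

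Photoreceptor genes were lower at 7 dpf in siblings, where 12% of all genes tested were called lower and 11.2% higher. Of 36 matched genes of cones, the photoreceptors of colour and daylight, 18 passed the filter, and of these 15 were called lower and 0 higher (median log2 change −2.20), and of 24 matched genes of rods, those of dim light, 17 passed, with 13 lower and 0 higher (median −1.46). No tested member of either list had a positive log2 change, but a gene high at 5 dpf alone could pass the filter. With no filter, 16 of 34 cone genes (median −1.01) and 13 of 24 rod genes (median −1.07) were called lower and 0 higher. Leaving out replicate 2 at 5 dpf gave 12 cone and 9 rod genes called lower, and leaving out replicate 2 at 7 dpf 12 and 7.

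The cone opsins are the light-sensing proteins themselves. The ultraviolet cone opsin, listed as OPN1SW (chr4:13577665-13580348), was at 13.8, 9.83 and 26.3 FPKM at 7 dpf, against 95.4, 272 and 199 FPKM at 5 dpf (log2 change −3.45, SE 0.44, adjusted p = 0.00175). The green cone opsin opn1mw1 was at 12.2, 8.996 and 27.8 FPKM at 7 dpf, against 92.6, 255 and 184 FPKM at 5 dpf (log2 change −3.44, SE 0.46, adjusted p = 0.00223). The red cone opsin opn1lw2 was at 2.73, 0.851 and 3.18 FPKM at 7 dpf, against 16.9, 30.1 and 29.4 FPKM at 5 dpf (log2 change −3.32, SE 0.39, adjusted p = 0.00130). The blue cone opsin opn1sw2 was at 1.54, 0.855 and 1.37 FPKM at 7 dpf, against 3.47, 10.33 and 11.4 FPKM at 5 dpf (log2 change −2.21, SE 0.40, adjusted p = 0.00717). The libraries of 7 dpf lay below those of 5 dpf for each of these 4 opsins. Replicate 1 had the lowest value at 5 dpf for all 4, and replicate 2 the lowest at 7 dpf.

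Genes of the signaling cascade behind the opsins were lower too, among them the 3 subunits of cone transducin. GNGT2 (gene ID ENSDARG00000103543), the gamma subunit, was at 26.3, 29.5 and 40.2 FPKM at 7 dpf, against 169.9, 323 and 319.8 FPKM at 5 dpf (log2 change −3.03, SE 0.27, adjusted p = 5.58e-04). gnb3b, the beta subunit, was at 3.65, 3.82 and 10.1 FPKM at 7 dpf, against 26.8, 46.3 and 63.2 FPKM at 5 dpf (log2 change −2.92, SE 0.42, adjusted p = 0.00275). GNAT2, the alpha subunit, was at 2.44, 1.55 and 5.62 FPKM at 7 dpf, against 14.2, 22.7 and 36.7 FPKM at 5 dpf (log2 change −2.81, SE 0.44, adjusted p = 0.00403). The rod transducin gene GNAT1 was at 1.16, 1.02 and 3.16 FPKM at 7 dpf, against 9.04, 8.63 and 15.4 FPKM at 5 dpf (log2 change −2.41, SE 0.36, adjusted p = 0.00337). sagb, the rod arrestin that ends the light response, was at 5.46, 1.70 and 6.59 FPKM at 7 dpf, against 18, 23.9 and 22.0 FPKM at 5 dpf (log2 change −2.26, SE 0.40, adjusted p = 0.00628). PRPH2, a protein of the outer segment rim, was at 2.51, 0.960 and 5.29 FPKM at 7 dpf, against 5.98, 14.7 and 15.3 FPKM at 5 dpf (log2 change −1.98, SE 0.52, adjusted p = 0.0290, lost without replicate 1 or 2 at 7 dpf, without replicate 2 or 3 at 5 dpf or with no filter). All 6 of these genes were lower in every 7 dpf library than in any library of 5 dpf.

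In the visual cycle, which regenerates the chromophore, 9 of 16 tested genes were called lower and 1 higher (median −0.73). Without replicate 2 at 7 dpf or replicate 1 at 5 dpf 6 were called lower and 0 higher, and without replicate 2 at 5 dpf 6 and 1. rbp3, which shuttles retinoids between photoreceptors and pigment epithelium, was at 5.06, 2.32 and 7.49 FPKM at 7 dpf, against 20.7, 43.5 and 43.6 FPKM at 5 dpf (log2 change −2.79, SE 0.41, adjusted p = 0.00325). The isomerase gene listed as RPE65 (gene ID ENSDARG00000007480) was at 4.21, 2.297 and 5.57 FPKM at 7 dpf, against 21.6, 22.0 and 40.8 FPKM at 5 dpf (log2 change −2.67, SE 0.33, adjusted p = 0.00166). RGR, an opsin of the pigment epithelium and Müller glia, was at 3.49, 3.66 and 3.44 FPKM at 7 dpf, against 9.65, 16.2 and 14.4 FPKM at 5 dpf (log2 change −1.76, SE 0.20, adjusted p = 0.00113). The cellular retinaldehyde binding protein genes rlbp1a and rlbp1b had log2 changes of −1.19 (adjusted p = 0.0349, lost without replicate 1 or 2 at 7 dpf, without any 1 library of 5 dpf or with no filter) and −1.64 (adjusted p = 0.00296). The lens list stood beside this with 2 of 47 tested members called lower and 0 higher, where 12% and 11.2% of all genes were. CRYAA, alpha-crystallin, was at 3.05, 1.74 and 7.40 FPKM at 7 dpf, against 2.56, 2.93 and 6.12 FPKM at 5 dpf. crygm2d1, a gamma-crystallin of fish, was at 330.2, 189 and 310.1 FPKM at 7 dpf, against 268, 350.3 and 285 FPKM at 5 dpf. The ages overlapped for both, and CRYBB1 had a log2 change of −0.20 (adjusted p = 0.712). The 2 called lens genes, crygm2d4 and crygmxl1, had log2 changes of −0.94 and −0.93. Neither was called without replicate 2 at 7 dpf or without replicate 2 or 3 at 5 dpf.

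**Figure D3:**
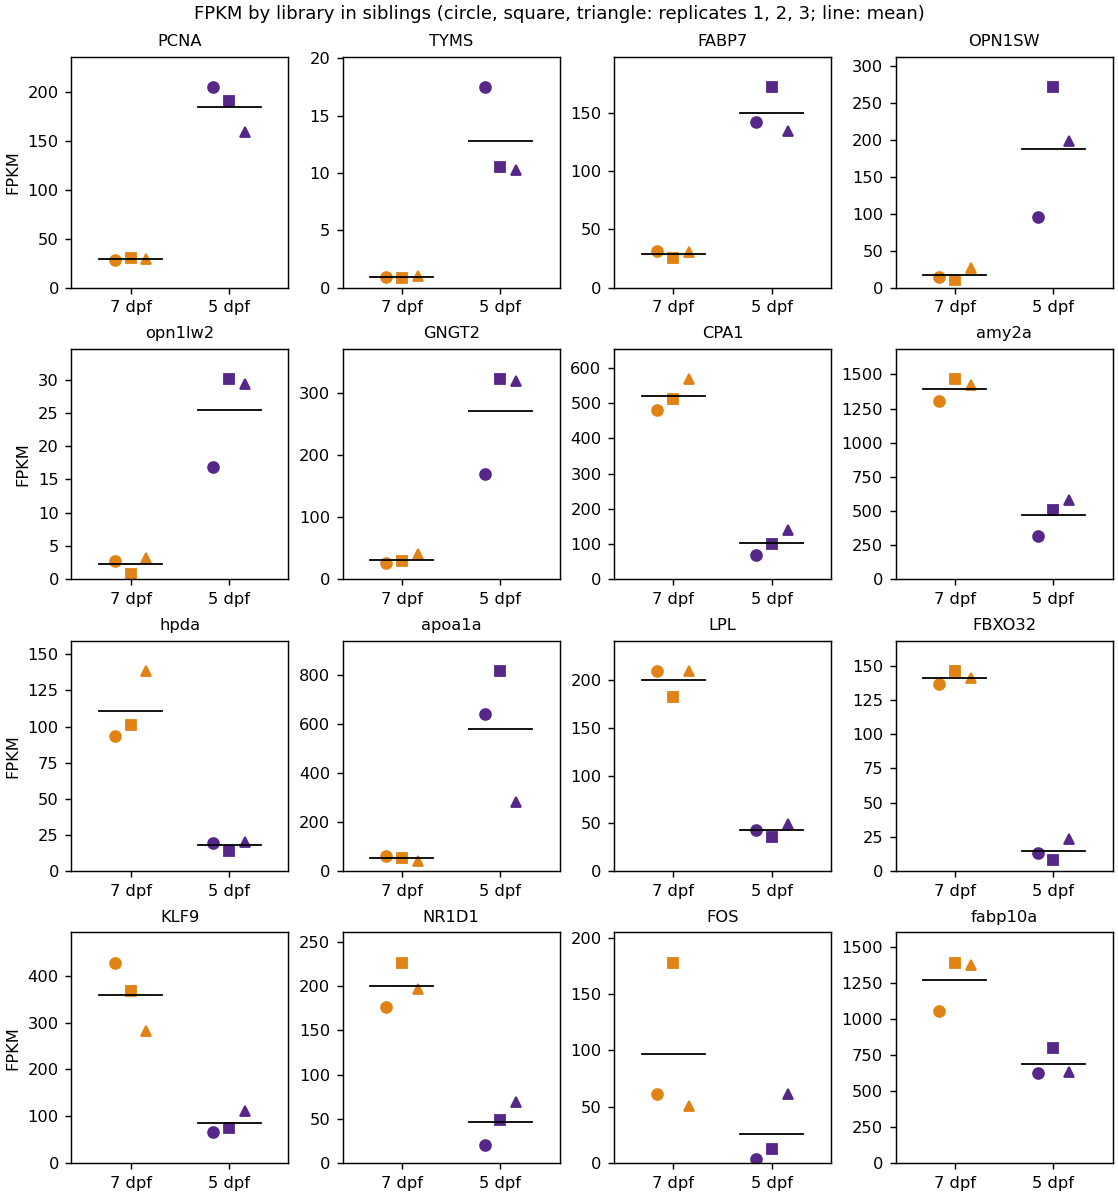
FPKM of 16 genes in the sibling libraries, 7 dpf (orange, left) and 5 dpf (purple, right), with the replicate by symbol and the mean as a line, on axes from 0. For FOS alone among these genes the ages overlap: its values run from 50.9 to 178 FPKM at 7 dpf and from 3.70 to 60.8 FPKM at 5 dpf.

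Genes of pancreatic digestive enzymes rose, where 11.2% of all genes tested were called higher and 12% lower. Of 34 matched members 31 were tested, 20 were called higher and 1 lower, and the median log2 change was 1.1. The trypsin gene prss1, one of the most abundant messages of the larvae, was at 7621, 9121 and 9635 FPKM at 7 dpf, against 2272, 4889.8 and 4039.5 FPKM at 5 dpf (log2 change 1.3, SE 0.30, adjusted p = 0.0183, lost without replicate 2 or 3 at 7 dpf, with no filter or with all 12 libraries). The amylase gene amy2a was at 1304, 1467 and 1419 FPKM at 7 dpf, against 319, 504 and 584 FPKM at 5 dpf (log2 change 1.62, SE 0.23, adjusted p = 0.00273, lost with all 12 libraries). The carboxypeptidase gene CPA1 was at 479.9, 511 and 569 FPKM at 7 dpf, against 68.9, 100.2 and 139.7 FPKM at 5 dpf (log2 change 2.39, SE 0.24, adjusted p = 7.61e-04). The elastase gene ela2 was at 304, 254 and 211 FPKM at 7 dpf, against 165, 233 and 194 FPKM at 5 dpf and was not called (adjusted p = 0.185).

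Within 5 dpf, replicate 1 was the lowest library for prss1, amy2a and CPA1 alike, and at the list's median it lay 0.48 below the mean of its age on the log2 scale. c6ast3, an astacin-type protease, was at 85.1, 137 and 182 FPKM at 7 dpf, against 17.4, 24.0 and 31.3 FPKM at 5 dpf (log2 change 2.42, SE 0.30, adjusted p = 0.00163). The elastase gene cela1.3 was at 151, 174 and 254 FPKM at 7 dpf, against 23.7, 48.4 and 63.4 FPKM at 5 dpf (log2 change 2.16, SE 0.35, adjusted p = 0.00461). ela2l, also an elastase gene, was at 242, 146 and 225 FPKM at 7 dpf, against 60.3, 47.4 and 47.3 FPKM at 5 dpf (log2 change 1.95, SE 0.21, adjusted p = 0.00103). The count of members called higher was 19 without replicate 2 at 5 dpf and 14 without replicate 2 or 3 at 7 dpf. It was 8 when all 12 libraries shared 1 estimate of the spread, where prss1 and amy2a had an adjusted p of 0.240 and 0.0595. Hormone genes of the islets were near the lower limit: of 5 tested members 0 were called by limma and 0 by voom, and 1 was higher at an unadjusted p under 0.05. It was gcga, which encodes glucagon, at 1.11, 1.99 and 1.44 FPKM at 7 dpf, against 0.756, 0.696 and 0.776 FPKM at 5 dpf (log2 change 0.68, adjusted p = 0.0554, called under 3 of the alternatives). The insulin gene ins, at 5.55 FPKM at most, did not pass the filter.

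In the gut list, 8 of 42 tested members were called higher and 3 lower (median 0.34), beside 11.2% and 12% of all genes tested. FABP1 (gene ID ENSDARG00000059227), the fatty acid binding protein of the absorptive cells, fell, at 88.8, 114 and 83.2 FPKM at 7 dpf, against 481, 453 and 318 FPKM at 5 dpf (log2 change −2.11, SE 0.20, adjusted p = 6.20e-04). FABP2, the intestinal form, was at 4.71, 2.48 and 2.33 FPKM at 7 dpf, against 7.67, 7.64 and 4.61 FPKM at 5 dpf (log2 change −0.98, SE 0.29, adjusted p = 0.0418, lost without replicate 2 or 3 at 7 dpf, without replicate 1 or 2 at 5 dpf, with no filter or with all 12 libraries). The cytochrome gene cyp3a65, of xenobiotic metabolism, rose, at 165, 149 and 148 FPKM at 7 dpf, against 71.5, 47.4 and 48.2 FPKM at 5 dpf (log2 change 1.48, SE 0.18, adjusted p = 0.00141). SLC6A19, a transporter of neutral amino acids (gene ID ENSDARG00000056719), was at 12.7, 12.8 and 14.3 FPKM at 7 dpf, against 5.67, 4.36 and 4.02 FPKM at 5 dpf (log2 change 1.42, SE 0.16, adjusted p = 0.00113). FABP6, the ileal bile acid binding protein, was at 363, 412 and 311 FPKM at 7 dpf, against 174, 366 and 419 FPKM at 5 dpf without a call. The peptide transporter gene SLC15A1 (gene ID ENSDARG00000044528) was at 21.1, 18.4 and 17.5 FPKM at 7 dpf, against 18.9, 6.86 and 6.39 FPKM at 5 dpf and was not called either (adjusted p = 0.0925, called without replicate 1 at 5 dpf or with a replicate block). The count of members called higher was 15 with the replicate number as a block and 3 to 5 without any 1 library of 7 dpf. Scaling to TPM, scaling to total reads and voom each gave 5. Only 1 member was called lower without replicate 2 at 7 dpf or without replicate 1 or 2 at 5 dpf. Of 7 tested genes of goblet cells, which secrete mucus, 3 were called lower. AGR2, a disulfide isomerase needed to fold mucins, was at 6.50, 8.37 and 9.26 FPKM at 7 dpf, against 31.6, 28.7 and 15.8 FPKM at 5 dpf (log2 change −1.55, SE 0.26, adjusted p = 0.00551). muc5.2, a mucin, was at 0.733, 0.878 and 0.394 FPKM at 7 dpf, against 4.87, 3.95 and 2.98 FPKM at 5 dpf (log2 change −1.93, SE 0.24, adjusted p = 0.00161). itln3, an intelectin, was at 1.29, 1.59 and 1.66 FPKM at 7 dpf, against 3.83, 7.47 and 3.83 FPKM at 5 dpf (log2 change −1.40, SE 0.26, adjusted p = 0.00737).

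More hepatocyte genes rose than fell. Of 42 tested members 19 were called higher and 3 lower (median 0.54), beside 11.2% and 12% of all genes tested. fabp10a, the liver-type fatty acid binding protein of zebrafish, was at 1057, 1395 and 1376 FPKM at 7 dpf, against 623, 803 and 632 FPKM at 5 dpf (log2 change 0.89, SE 0.18, adjusted p = 0.0113, lost without replicate 2 at 7 dpf or with all 12 libraries). tfa, transferrin, fell, at 64.3, 89.3 and 78.5 FPKM at 7 dpf, against 177, 271 and 152 FPKM at 5 dpf (log2 change −1.33, SE 0.23, adjusted p = 0.00576). serpina1, alpha-1-antitrypsin, was at 165, 175 and 202 FPKM at 7 dpf, against 103, 173 and 81.3 FPKM at 5 dpf and was not called (adjusted p = 0.101, called without replicate 2 at 5 dpf or with library weights).

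The 4 liver genes with the largest called changes were all higher. hpda, which acts in tyrosine breakdown, was at 93.4, 101.2 and 139 FPKM at 7 dpf, against 19.5, 13.9 and 20.3 FPKM at 5 dpf (log2 change 2.60, SE 0.20, adjusted p = 4.32e-04). CYP7A1, the rate-limiting enzyme of bile acid synthesis, was at 45.8, 38.2 and 40.2 FPKM at 7 dpf, against 18.05, 14.0 and 8.20 FPKM at 5 dpf (log2 change 1.65, SE 0.26, adjusted p = 0.00391). ABCB11, the pump that exports bile salts, was at 5.11, 5.12 and 6.40 FPKM at 7 dpf, against 1.29, 1.63 and 2.02 FPKM at 5 dpf (log2 change 1.5, SE 0.18, adjusted p = 0.00152). The plasma protein gene ahsg1 was at 13.5, 16.03 and 16.7 FPKM at 7 dpf, against 3.75, 3.99 and 5.95 FPKM at 5 dpf (log2 change 1.67, SE 0.19, adjusted p = 0.00118). The number of liver genes called higher was 20 without replicate 2 at 5 dpf, 12 when scaled by total reads or tested by voom and 10 to 12 without any 1 library of 7 dpf, and 8 were called lower without replicate 3 at 5 dpf.

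Most lipoprotein genes of yolk and liver fell and a few rose. Of 24 matched genes 21 were tested, with 13 called lower and 4 higher (median −1.09), beside 12% and 11.2% of all genes. apoa1a (chr5:37978501-37981521), an apolipoprotein A-I gene, was at 60.0, 53.3 and 43.0 FPKM at 7 dpf, against 639, 818 and 281 FPKM at 5 dpf (log2 change −3.34, SE 0.36, adjusted p = 9.95e-04). apoea, an apolipoprotein E gene, was at 31.4, 32.9 and 24.7 FPKM at 7 dpf, against 244, 190.4 and 111 FPKM at 5 dpf (log2 change −2.53, SE 0.28, adjusted p = 0.00103). apobb.1, the scaffold apolipoprotein B of yolk lipid export, was at 31.1, 23.6 and 27.9 FPKM at 7 dpf, against 154, 174 and 66.6 FPKM at 5 dpf (log2 change −2.13, SE 0.34, adjusted p = 0.00401). apoc2, the cofactor of lipoprotein lipase, was at 14.5, 10.8 and 10.53 FPKM at 7 dpf, against 79.1, 82.8 and 27.8 FPKM at 5 dpf (log2 change −2.22, SE 0.39, adjusted p = 0.00618). apoa4a was at 1.89, 1.18 and 0.372 FPKM at 7 dpf, against 16.03, 11.2 and 2.77 FPKM at 5 dpf (log2 change −2.50, SE 0.60, adjusted p = 0.0213, lost without replicate 2 or 3 at 7 dpf or without replicate 1 or 2 at 5 dpf). For all 5, replicate 3 had the lowest value at 5 dpf. The partner copies of apoa1a and apoea were not called. apoa1b was at 483, 553 and 494 FPKM at 7 dpf, against 583, 462 and 438 FPKM at 5 dpf. apoeb was at 605, 492 and 478 FPKM at 7 dpf, against 757, 787 and 565 FPKM at 5 dpf (adjusted p = 0.141, called under 3 of the alternatives). In this list, 8 members were called lower without replicate 1 at 5 dpf or without replicate 2 at 7 dpf, and 9 without replicate 2 at 5 dpf. Of 7 matched vitellogenin genes, which encode the yolk proteins made by adult females, 0 passed the filter.

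Synthesis and burning of lipids were lower at 7 dpf in part of the genes. Of 42 tested genes of cholesterol and fatty acid synthesis 20 were called lower and 5 higher (median −0.58). Among all genes tested 12% were lower and 11.2% higher, and the list's higher share lay near the latter. The higher count was 3 without replicate 1 or 2 at 7 dpf or replicate 3 at 5 dpf. The lower count ran from 14 to 22 under the alternatives run. HMGCS1, which makes HMG-CoA for the mevalonate pathway, was at 3.95, 3.90 and 2.83 FPKM at 7 dpf, against 12.8, 12.4 and 10.27 FPKM at 5 dpf (log2 change −1.61, SE 0.17, adjusted p = 9.36e-04). CYP51A1, which demethylates lanosterol, was at 2.45, 2.82 and 3.26 FPKM at 7 dpf, against 11.5, 18.9 and 19.9 FPKM at 5 dpf (log2 change −2.34, SE 0.22, adjusted p = 6.20e-04). ACAT2, which makes acetoacetyl-CoA, was at 1.5996, 1.66 and 1.998 FPKM at 7 dpf, against 6.94, 8.76 and 6.73 FPKM at 5 dpf (log2 change −1.82, SE 0.16, adjusted p = 5.58e-04). SQLE, squalene epoxidase, was at 0.435, 0.699 and 0.817 FPKM at 7 dpf, against 2.94, 3.78 and 3.40 FPKM at 5 dpf (log2 change −1.76, SE 0.20, adjusted p = 0.00113). EBP, a sterol isomerase, had a log2 change of −1.71. FASN, fatty acid synthase, was at 3.15, 2.37 and 2.17 FPKM at 7 dpf, against 2.45, 1.88 and 1.58 FPKM at 5 dpf, with overlapping ages.

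Of 35 tested genes of fatty acid oxidation 18 were called lower and 0 higher (median −0.58), beside 12% and 11.2% of all genes tested. The lower count was 11 without replicate 2 at 7 dpf and 12 without replicate 3 at 7 dpf or replicate 1 at 5 dpf. ECI1, an isomerase of mitochondrial beta-oxidation, was at 10.53, 10.1 and 10.9 FPKM at 7 dpf, against 41.7, 48.8 and 38.3 FPKM at 5 dpf (log2 change −1.97, SE 0.14, adjusted p = 3.51e-04). HADHA (gene ID ENSDARG00000060594), of the trifunctional protein, was at 9.08, 8.20 and 8.01 FPKM at 7 dpf, against 28.1, 21.7 and 24.7 FPKM at 5 dpf (log2 change −1.50, SE 0.14, adjusted p = 6.20e-04). cpt1ab, which carries fatty acids into mitochondria, was at 5.85, 5.23 and 4.58 FPKM at 7 dpf, against 15.5, 12.5 and 14.7 FPKM at 5 dpf (log2 change −1.37, SE 0.15, adjusted p = 0.00110). ACADL, a dehydrogenase of long chains, had a log2 change of −1.24. The defining gene CPT2 had a change of −1.16 (adjusted p = 0.0330, lost without any 1 library of 7 dpf, without replicate 1 at 5 dpf or with no filter). ACADM, of medium chains, had a change of −0.31 without a call (adjusted p = 0.174).

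In contrast to those lists, LPL, which frees fatty acids from circulating lipoproteins, rose. It was at 209, 182 and 209.6 FPKM at 7 dpf, against 43.0, 35.6 and 49.4 FPKM at 5 dpf (log2 change 2.23, SE 0.15, adjusted p = 3.51e-04). Among 16 tested genes of adipocytes and lipid droplets 4 were called higher and 6 lower, beside 11.2% and 12% of all genes tested. The lower count was 3, beside 3 or 4 higher, without replicate 1 or 2 of either age. pparg, the nuclear receptor of fat storage, was at 8.40, 9.35 and 8.60 FPKM at 7 dpf, against 4.55, 3.45 and 3.49 FPKM at 5 dpf (log2 change 1.11, SE 0.15, adjusted p = 0.00243). PNPLA2, a triglyceride lipase, was at 6.75, 8.29 and 5.96 FPKM at 7 dpf, against 3.205, 1.33 and 2.25 FPKM at 5 dpf (log2 change 1.49, SE 0.26, adjusted p = 0.00634). The binding protein genes fabp4a and fabp4b were lower, with log2 changes of −1.42 and −2.33.

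Sugar metabolism genes of liver and gut went both ways, with 6 of 23 tested members called higher and 6 lower. The shares of all genes tested were 11.2% and 12%. PKLR, the pyruvate kinase of liver, was at 329, 368 and 365 FPKM at 7 dpf, against 127, 158 and 131 FPKM at 5 dpf (log2 change 1.36, SE 0.14, adjusted p = 8.35e-04). GPD1 (gene ID ENSDARG00000043701), which links glycolysis to glycerol, was at 52.2, 64.7 and 44.1 FPKM at 7 dpf, against 15.7, 26.5 and 18.2 FPKM at 5 dpf (log2 change 1.41, SE 0.22, adjusted p = 0.00394). The gluconeogenic gene FBP2 had a log2 change of −1.46 (adjusted p = 0.0403, lost without replicate 1 or 3 at 7 dpf, without replicate 2 or 3 at 5 dpf, with no filter or with library weights), and fbp1b was at 5.52, 4.27 and 5.13 FPKM at 7 dpf, against 2.32, 4.45 and 5.14 FPKM at 5 dpf without a call.

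Part of the nuclear genes of oxidative phosphorylation fell: 39 of 79 tested members were called lower and 0 higher (median −0.56). The lower count was 26 without replicate 2 at 7 dpf and 32 without replicate 2 at 5 dpf. UQCR10, a subunit of complex III, was at 23.1, 23.1 and 18.4 FPKM at 7 dpf, against 90.5, 113 and 75.9 FPKM at 5 dpf (log2 change −2.08, SE 0.18, adjusted p = 5.25e-04). atp5mc1, the ring subunit of ATP synthase, was at 97.1, 89.7 and 88.2 FPKM at 7 dpf, against 368, 539 and 258 FPKM at 5 dpf (log2 change −2.01, SE 0.25, adjusted p = 0.00152). cycsb, a cytochrome c gene, was at 113, 103 and 76.3 FPKM at 7 dpf, against 369, 346 and 261 FPKM at 5 dpf (log2 change −1.74, SE 0.20, adjusted p = 0.00117). ndufa4b had a log2 change of −2.05 (adjusted p = 0.0160, lost without replicate 2 at 7 dpf or without replicate 2 at 5 dpf). The defining genes ATP5F1B and COX4I1 had changes of −0.54 (adjusted p = 0.133, called under 4 of the alternatives) and −0.54 (adjusted p = 0.05003, called without replicate 3 at 5 dpf or under 8 other settings). Of 13 genes of the mitochondrial genome 2 were called lower, beside 12% of all genes tested. MT-ND1, of complex I, was at 1345, 1171 and 1255 FPKM at 7 dpf, against 2704, 3992 and 2103 FPKM at 5 dpf (log2 change −1.17, SE 0.24, adjusted p = 0.0120, lost without replicate 2 at 7 dpf). MT-ATP6, of ATP synthase, was at 3483, 3137 and 3960.3 FPKM at 7 dpf, against 6848, 10484 and 5825 FPKM at 5 dpf (log2 change −1.09, SE 0.26, adjusted p = 0.0195, lost without replicate 1 or 2 at 7 dpf or with no filter). MT-ATP6 overlaps its neighbours MT-CO3 and mt-atp8 on the same strand. MT-CO1, MT-CO2 and MT-CO3 were among the 5 genes of highest mean level and were not called (log2 changes −0.0044, −0.08 and −0.32), with replicate 2 at 5 dpf the highest of the 6 libraries for each. The number of mitochondrial genes called lower was 4 without that library, 0 without replicate 2 at 7 dpf, 1 without replicate 1 at 7 dpf and 9 when scaled by total reads.

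Some genes of fast muscle were higher and others lower. Of 52 tested genes of fast muscle 12 were called higher and 8 lower (median 0.14). Of all genes tested 11.2% were higher and 12% lower. The myosin heavy chain gene myhz1.1 was at 3229, 2982 and 2677 FPKM at 7 dpf, against 1361, 1442 and 1439 FPKM at 5 dpf (log2 change 1.06, SE 0.16, adjusted p = 0.00336). atp2a1l, a calcium pump of the sarcoplasmic reticulum, was at 2301, 1842 and 1860.2 FPKM at 7 dpf, against 446, 604 and 691 FPKM at 5 dpf (log2 change 1.80, SE 0.20, adjusted p = 0.00113). TTN, the giant spring of the sarcomere, has 2 entries. Gene ID ENSDARG00000000563 was at 10.54, 10.8 and 10.8 FPKM at 7 dpf, against 2.26, 3.18 and 3.21 FPKM at 5 dpf (log2 change 1.74, SE 0.16, adjusted p = 5.70e-04). Gene ID ENSDARG00000028213 was at 9.03, 9.12 and 8.82 FPKM at 7 dpf, against 2.34, 3.07 and 3.104 FPKM at 5 dpf (log2 change 1.51, SE 0.15, adjusted p = 7.11e-04). Within each age the TTN values differed by less than the gap between the ages.

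Other muscle genes were lower at 7 dpf. ACTA1 (gene ID ENSDARG00000055618), a skeletal alpha-actin, was at 255, 235 and 134 FPKM at 7 dpf, against 778, 1267 and 752 FPKM at 5 dpf (log2 change −2.17, SE 0.29, adjusted p = 0.00227). The fast myosin light chain gene listed as MYL11 (gene ID ENSDARG00000002589) was at 1437, 1313 and 967 FPKM at 7 dpf, against 2792, 3055 and 1901 FPKM at 5 dpf (log2 change −1.05, SE 0.24, adjusted p = 0.0178, lost without replicate 2 or 3 at 7 dpf or without replicate 1 at 5 dpf). Another MYL11 entry (gene ID ENSDARG00000053254) was not called (adjusted p = 0.291). ckma, muscle creatine kinase, was at 478, 456 and 397 FPKM at 7 dpf, against 414, 481 and 372 FPKM at 5 dpf and was not called. The most abundant messages of all were pvalb1, a calcium buffer of fast muscle, and actc1b, an alpha-actin. pvalb1 was at 19200.1, 20007 and 15808 FPKM at 7 dpf, against 24574, 40827 and 22039.5 FPKM at 5 dpf (log2 change −0.62, adjusted p = 0.175, called under 4 of the alternatives). actc1b was at 19557, 19339 and 16445 FPKM at 7 dpf, against 15128, 22938 and 13389 FPKM at 5 dpf (log2 change 0.14, adjusted p = 0.750). The highest 5 dpf value of both was in replicate 2, and without it the number of fast muscle genes called was 14 higher and 4 lower. Without replicate 1 at 5 dpf 3 were lower, and without replicate 2 or 3 at 7 dpf 2. In the slow muscle and heart list 3 of 31 tested members were called higher and 4 lower. These shares are near those of all genes, and 1 member was lower without replicate 2 or 3 at 7 dpf or replicate 1 at 5 dpf. smyhc1, the slow myosin heavy chain, was at 128, 117 and 92.6 FPKM at 7 dpf, against 42.0, 50.7 and 51.3 FPKM at 5 dpf (log2 change 1.21, SE 0.16, adjusted p = 0.00215). MYL7, the light chain of heart muscle, was at 18.7, 15.7 and 15.8 FPKM at 7 dpf, against 27.4, 31.9 and 21.4 FPKM at 5 dpf (log2 change −0.65, SE 0.17, adjusted p = 0.0295, lost without any 1 library of 7 dpf or without replicate 1 or 2 at 5 dpf). TNNC1, slow troponin C, had a log2 change of −0.45 (adjusted p = 0.116, called under 3 of the alternatives).

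The list of fasting response and muscle atrophy, to which FBXO32 belongs, had 23 of 55 tested members called higher and 8 lower (median 0.51). Among all genes tested 11.2% were higher and 12% lower, and the list's lower share was near the latter. igfbp1b, a binding protein that holds insulin-like growth factors and rises in fasted fish, was at 44.5, 52.02 and 63.4 FPKM at 7 dpf, against 6.94, 8.28 and 15.07 FPKM at 5 dpf (log2 change 2.4, SE 0.27, adjusted p = 0.00117). IGFBP1 (gene ID ENSDARG00000099351) was at 41.8, 83.3 and 55.1 FPKM at 7 dpf, against 11.4, 11.2 and 41.7 FPKM at 5 dpf (log2 change 1.69, SE 0.49, adjusted p = 0.0418, lost without any 1 library of 7 dpf, without replicate 1 or 2 at 5 dpf or under 4 other settings), with replicate 3 at 5 dpf at the level of the lowest 7 dpf library. CEBPD, a transcription factor of stress and acute phase, was at 914, 1227 and 1006 FPKM at 7 dpf, against 139, 177 and 457 FPKM at 5 dpf (log2 change 2.21, SE 0.40, adjusted p = 0.00700). DDIT4, an inhibitor of mTORC1, was at 92.4, 88.9 and 96.1 FPKM at 7 dpf, against 7.07, 29.0 and 45.3 FPKM at 5 dpf (log2 change 2.1, SE 0.56, adjusted p = 0.0318, lost without any 1 library of 7 dpf, without replicate 2 at 5 dpf or with no filter). PCK1, the gate of gluconeogenesis, was at 142, 115 and 82.1 FPKM at 7 dpf, against 200.1, 131 and 93.2 FPKM at 5 dpf with overlapping ages (adjusted p = 0.524). Leaving out replicate 1 or 2 at 7 dpf lowered the number called higher to 15, and leaving out replicate 2 at 7 dpf or replicate 1 at 5 dpf lowered the number called lower to 5.

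Growth factor and hormone genes gave a mixed picture in the same larvae. All genes tested gave 11.2% higher and 12% lower. Of 18 tested genes of the growth hormone and insulin-like growth factor axis 8 were called higher and 2 lower. Without replicate 2 at 5 dpf 6 were higher and 0 lower, without replicate 2 at 7 dpf 4 and 1, and without replicate 1 at 7 dpf 6 and 0. igf2a and igf2b encode growth factors of early life. igf2a was at 15.07, 13.1 and 17.2 FPKM at 7 dpf, against 7.82, 7.38 and 9.24 FPKM at 5 dpf (log2 change 0.85, SE 0.16, adjusted p = 0.00725). igf2b was at 14.0, 13.9 and 14.4 FPKM at 7 dpf, against 5.69, 6.69 and 10.1 FPKM at 5 dpf (log2 change 0.91, SE 0.20, adjusted p = 0.0160, lost without replicate 2 or 3 at 7 dpf or without replicate 2 at 5 dpf). ghrb, a growth hormone receptor, was at 43.8, 36.7 and 34.0 FPKM at 7 dpf, against 15.8, 14.96 and 18.4 FPKM at 5 dpf (log2 change 1.19, SE 0.15, adjusted p = 0.00156). SOCS2, which damps that receptor, was at 34.9, 27.3 and 20.9 FPKM at 7 dpf, against 6.41, 8.92 and 9.53 FPKM at 5 dpf (log2 change 1.67, SE 0.22, adjusted p = 0.00209). IGF1 itself was at 0.798, 0.684 and 0.754 FPKM at 7 dpf, against 1.42, 0.807 and 0.675 FPKM at 5 dpf and was not called. KLF9, a transcription factor induced by thyroid hormone and glucocorticoid, rose, at 428, 367 and 283 FPKM at 7 dpf, against 66.9, 75.7 and 111 FPKM at 5 dpf (log2 change 2.09, SE 0.23, adjusted p = 0.00103). dio3b, which inactivates thyroid hormone, fell, at 3.097, 2.60 and 2.4 FPKM at 7 dpf, against 6.92, 5.79 and 4.32 FPKM at 5 dpf (log2 change −0.93, SE 0.20, adjusted p = 0.0125). These were the 2 genes called among 12 tested in the thyroid list (3 without replicate 3 at 5 dpf), where TG, thyroglobulin, had a log2 change of 0.28 without a call. Among all genes tested 23.2% were called in either direction. Of 13 matched pituitary hormone genes only gh1, growth hormone, passed the filter, at 0.380, 1.29 and 2.34 FPKM at 7 dpf, against 0.217, 0.770 and 0.965 FPKM at 5 dpf, with overlapping ages.

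More clock genes rose than fell. Of 37 tested members 16 were called higher and 3 lower (median 0.63), beside 11.2% and 12% of all genes tested. The repressor NR1D1 was at 176, 227 and 197 FPKM at 7 dpf, against 19.8, 49.1 and 69.3 FPKM at 5 dpf (log2 change 2.27, SE 0.40, adjusted p = 0.00613). nr1d4b, a gene of the same family, was at 6.47, 24.2 and 25.2 FPKM at 7 dpf, against 0.652, 3.18 and 4.26 FPKM at 5 dpf (log2 change 2.59, SE 0.64, adjusted p = 0.0228, lost without replicate 2 or 3 at 7 dpf or without replicate 1 or 2 at 5 dpf). dbpb, an output factor, was at 14.98, 20.4 and 20.4 FPKM at 7 dpf, against 2.03, 5.24 and 6.26 FPKM at 5 dpf (log2 change 2.04, SE 0.35, adjusted p = 0.00549). The period gene PER1, which closes the loop, has 2 entries. Gene ID ENSDARG00000012499 was at 28.4, 21.1 and 15.8 FPKM at 7 dpf, against 8.14, 7.03 and 9.40 FPKM at 5 dpf (log2 change 1.33, SE 0.22, adjusted p = 0.00481). Gene ID ENSDARG00000056885 was at 22.4, 20.5 and 15.8 FPKM at 7 dpf, against 3.90, 5.84 and 5.71 FPKM at 5 dpf (log2 change 1.83, SE 0.20, adjusted p = 0.00100). BMAL1, the activator of the loop, was lower in its copy on gene ID ENSDARG00000035732, at 0.396, 0.866 and 1.13 FPKM at 7 dpf, against 2.71, 1.75 and 1.95 FPKM at 5 dpf (log2 change −1.05, SE 0.27, adjusted p = 0.0259, lost without replicate 1 or 2 at 7 dpf, without replicate 1 or 3 at 5 dpf or with no filter), and the copy ENSDARG00000006791 was not called (log2 change −0.86, adjusted p = 0.0979, called without replicate 2 at 5 dpf or with library weights). For NR1D1, nr1d4b and dbpb replicate 1 was the lowest library within each age. The part of the hour of collection in these values was not tested.

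Immediate early genes, which cells switch on within minutes of a stimulus, had a positive log2 change in 37 of 38 tested members, of which 12 were called higher and 0 lower (median 0.96). Among all genes tested 11.2% were called higher and 12% lower. The spread of the immediate early genes between libraries was large. FOS was at 61.0, 178 and 50.9 FPKM at 7 dpf, against 3.70, 12.4 and 60.8 FPKM at 5 dpf (adjusted p = 0.0820, called without replicate 3 at 5 dpf). egr1 was at 5.53, 13.4 and 4.996 FPKM at 7 dpf, against 2.26, 2.58 and 6.77 FPKM at 5 dpf (adjusted p = 0.162, called without replicate 3 at 5 dpf), and neither passed the test over the 6 libraries. JUNB has 2 entries. Gene ID ENSDARG00000074378 was at 26.0, 52.7 and 18.9 FPKM at 7 dpf, against 4.17, 4.59 and 19.2 FPKM at 5 dpf (log2 change 1.96, SE 0.58, adjusted p = 0.0437, lost without any 1 library of 7 dpf, without replicate 1 or 2 at 5 dpf or under 5 other settings). Gene ID ENSDARG00000104773 was at 85.6, 211 and 69.7 FPKM at 7 dpf, against 19.6, 24.3 and 99.9 FPKM at 5 dpf (log2 change 1.56, adjusted p = 0.113, called without replicate 3 at 5 dpf). Replicate 3 at 5 dpf reached the level of the lower 7 dpf libraries for each of these genes, and replicate 2 was the highest at 7 dpf. Without replicate 3 at 5 dpf 24 members were called higher, without replicate 2 at 7 dpf 5, without replicate 3 at 7 dpf 8, and without replicate 1 or 2 at 5 dpf or replicate 1 at 7 dpf 7, so that single libraries set this count.

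**Figure D4:**
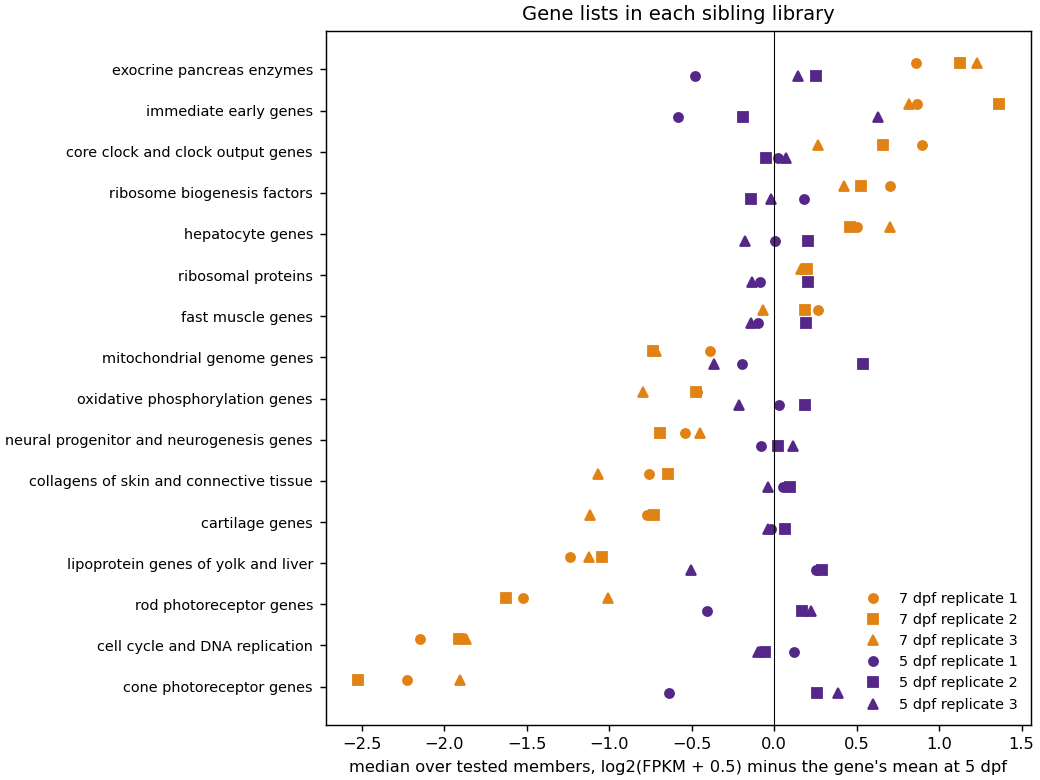
Median over the tested members of 16 gene lists in each sibling library, as log2(FPKM + 0.5) minus the mean of the gene at 5 dpf, with 7 dpf in orange and 5 dpf in purple. The 7 dpf libraries of the cell cycle list lie at −1.87 or lower, while for immediate early genes replicate 3 at 5 dpf lies at 0.63 and the lower 2 libraries of 7 dpf at 0.82 and 0.86.

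Most cartilage and collagen genes fell, where 12% of all genes tested were called lower and 11.2% higher. Of 30 tested cartilage genes 21 were called lower and 0 higher (median −0.94), and of 38 tested genes of skin and connective tissue collagens 24 and 1 (median −0.73). The 1 higher call was absent without any 1 library of 7 dpf or without replicate 1 or 3 at 5 dpf. Without replicate 3 at 7 dpf 16 cartilage and 17 collagen genes were called lower. The cartilage collagen COL2A1 has 2 entries. Gene ID ENSDARG00000069093 was at 31.2, 37.0 and 25.3 FPKM at 7 dpf, against 87.8, 93.8 and 82.8 FPKM at 5 dpf (log2 change −1.50, SE 0.16, adjusted p = 9.46e-04). Gene ID ENSDARG00000011407 was at 63.6, 60.6 and 42.7 FPKM at 7 dpf, against 92.3, 96.0 and 89.7 FPKM at 5 dpf (log2 change −0.75, SE 0.17, adjusted p = 0.0165). MATN1, a cartilage matrix protein, was at 12.4, 11.2 and 9.86 FPKM at 7 dpf, against 27.0, 48.5 and 45.1 FPKM at 5 dpf (log2 change −1.77, SE 0.23, adjusted p = 0.00179). The fibril partner col9a3 was at 13.1, 11.4 and 7.54 FPKM at 7 dpf, against 55.2, 52.1 and 50.3 FPKM at 5 dpf (log2 change −2.28, SE 0.20, adjusted p = 5.38e-04). COL11A2, another, was at 4.06, 4.28 and 3.92 FPKM at 7 dpf, against 15.05, 15.102 and 18.3 FPKM at 5 dpf (log2 change −1.85, SE 0.14, adjusted p = 3.88e-04). hapln1a, which links aggrecan to hyaluronan, was at 7.22, 8.34 and 6.28 FPKM at 7 dpf, against 26.3, 35.3 and 20.7 FPKM at 5 dpf (log2 change −1.82, SE 0.21, adjusted p = 0.00117). acana, aggrecan itself, was at 3.17, 2.42 and 2.98 FPKM at 7 dpf, against 1.27, 2.32 and 3.01 FPKM at 5 dpf and was not called.

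The fibrillar collagen of skin and bone, col1a1a, was at 93.9, 102 and 107 FPKM at 7 dpf, against 264, 279 and 194 FPKM at 5 dpf (log2 change −1.26, SE 0.17, adjusted p = 0.00202). COL5A1, which starts its fibrils, was at 35.2, 35.6 and 29.8 FPKM at 7 dpf, against 63.8, 79.7 and 60.3 FPKM at 5 dpf (log2 change −1.0, SE 0.15, adjusted p = 0.00339). POSTN (periostin), mfap2, of elastic microfibrils, and COL6A2 had log2 changes of −1.42, −1.48 and −1.46. Bone genes numbered 7 lower and 1 higher of 19 tested (median −0.26), with 4 lower without replicate 2 or 3 at 7 dpf. All genes tested gave 12% lower and 11.2% higher over the 6 libraries. COL10A1 (gene ID ENSDARG00000054753), a collagen of early bone in fish, was at 41.4, 48.6 and 34.7 FPKM at 7 dpf, against 124, 151 and 144 FPKM at 5 dpf (log2 change −1.74, SE 0.16, adjusted p = 5.67e-04). PHOSPHO1, which frees phosphate for mineral, was at 2.97, 2.09 and 2.22 FPKM at 7 dpf, against 9.96, 19.7 and 9.12 FPKM at 5 dpf (log2 change −2.13, SE 0.29, adjusted p = 0.00222). spp1, osteopontin, was at 13.1, 13.1 and 12.9 FPKM at 7 dpf, against 5.48, 3.58 and 9.57 FPKM at 5 dpf (log2 change 1.11, SE 0.29, adjusted p = 0.0297, lost without any 1 library of 7 dpf, without replicate 1 or 2 at 5 dpf or under 5 other settings). SP7, the osteoblast transcription factor, was at 0.768, 1.11 and 1.06 FPKM at 7 dpf, against 1.33, 1.72 and 1.37 FPKM at 5 dpf without a call.

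Part of the genes of red blood cells were lower at 7 dpf. Of 4 tested globins 3 were called lower (median −1.57). The embryonic alpha-globin gene hbae3 was at 115, 139 and 88.0 FPKM at 7 dpf, against 324, 526 and 243 FPKM at 5 dpf (log2 change −1.62, SE 0.29, adjusted p = 0.00656). hbae1.3 was at 6.70, 12.8 and 10.6 FPKM at 7 dpf, against 46.3, 85.9 and 31.7 FPKM at 5 dpf (log2 change −2.31, SE 0.36, adjusted p = 0.00404). Outside the globins, 6 of 16 tested erythroid genes were called lower and 0 higher (median −0.26), beside 12% and 11.2% of all genes. The anion exchanger gene SLC4A1 on gene ID ENSDARG00000012881 was at 3.41, 4.65 and 3.497 FPKM at 7 dpf, against 14.1, 13.9 and 11.4 FPKM at 5 dpf (log2 change −1.65, SE 0.17, adjusted p = 7.51e-04). Its other entry, gene ID ENSDARG00000024560, was at 6.66, 6.50 and 6.21 FPKM at 7 dpf, against 7.26, 6.99 and 4.60 FPKM at 5 dpf with overlapping ages (adjusted p = 0.845). The transferrin receptor gene tfr1a, which imports iron for heme, was at 2.78, 2.29 and 1.70 FPKM at 7 dpf, against 11.5, 16.7 and 10.4 FPKM at 5 dpf (log2 change −2.27, SE 0.22, adjusted p = 6.82e-04). The carbonic anhydrase gene cahz was at 6.72, 7.46 and 4.86 FPKM at 7 dpf, against 18.3, 15.2 and 13.4 FPKM at 5 dpf (log2 change −1.24, SE 0.19, adjusted p = 0.00373). The erythroid regulator gata1a and the heme enzyme alas2 were listed at 0.297 and 0.0438 FPKM at most and did not pass the filter.

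In the list of neutrophils and macrophages 8 of 24 tested members were called higher and 0 lower (median 0.41). Without replicate 1 or 2 at 7 dpf 5 were higher. cd74a, the invariant chain of antigen presentation, was at 9.18, 8.52 and 7.08 FPKM at 7 dpf, against 1.58, 2.59 and 1.61 FPKM at 5 dpf (log2 change 1.87, SE 0.20, adjusted p = 9.90e-04). CMKLR1, a chemokine-like receptor, was at 8.46, 7.48 and 9.39 FPKM at 7 dpf, against 2.18, 2.69 and 4.31 FPKM at 5 dpf (log2 change 1.37, SE 0.23, adjusted p = 0.00494). NCF1, of the oxidase that makes superoxide, was at 4.95, 6.49 and 5.50 FPKM at 7 dpf, against 2.83, 1.91 and 2.62 FPKM at 5 dpf (log2 change 1.06, SE 0.18, adjusted p = 0.00564). The macrophage marker MPEG1 (gene ID ENSDARG00000043093) was at 9.32, 12.9 and 19.1 FPKM at 7 dpf, against 4.89, 7.36 and 11.9 FPKM at 5 dpf with overlapping ages (adjusted p = 0.144, called with a replicate block). Calls in the T cell list numbered 1 or 2 without any 1 library. Over the 6 libraries, 4 of 16 tested members were called higher, among them CCR9, the receptor that homes precursors to the thymus, at 12.2, 14.7 and 11.2 FPKM at 7 dpf, against 2.24, 2.85 and 5.26 FPKM at 5 dpf (log2 change 1.81, SE 0.27, adjusted p = 0.00328). RAG1, which recombines antigen receptors, was at 3.51, 3.57 and 2.82 FPKM at 7 dpf, against 2.85, 2.66 and 3.73 FPKM at 5 dpf without a call. Also called were il7r, a receptor of early lymphocytes (adjusted p = 0.0342, lost without any 1 library of 7 dpf, without replicate 1 or 3 at 5 dpf or under 3 other settings), and cd247l, of the T cell receptor complex (adjusted p = 0.0274, lost without replicate 2 or 3 at 7 dpf, without replicate 1 or 2 at 5 dpf or under 3 other settings). Of 24 tested genes of complement and acute phase 6 were called higher and 1 lower, beside 11.2% and 12% of all genes tested. hamp, hepcidin, the hormone that locks iron in cells, was at 2.14, 3.99 and 4.84 FPKM at 7 dpf, against 0.288, 0.683 and 0.190 FPKM at 5 dpf (log2 change 2.21, SE 0.32, adjusted p = 0.00280). LECT2 (gene ID ENSDARG00000090889), a liver-made chemotactic protein, was at 2.83, 4.09 and 3.24 FPKM at 7 dpf, against 1.1501, 1.02 and 0.626 FPKM at 5 dpf (log2 change 1.45, SE 0.22, adjusted p = 0.00325). This entry overlaps another LECT2 entry (gene ID ENSDARG00000033227) on the same strand, whose mean was 9.17 FPKM. c3a.1 was at 26.5, 32.7 and 39.1 FPKM at 7 dpf, against 30.7, 30.9 and 21.3 FPKM at 5 dpf without a call. leap2 fell, with a log2 change of −1.55 (adjusted p = 0.0208, lost without replicate 2 or 3 at 7 dpf or without replicate 1 or 2 at 5 dpf).

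More ribosome biogenesis genes rose than fell, while ribosomal protein genes mostly did not pass the test. Of 89 tested biogenesis factors 38 were called higher and 1 lower (median 0.55), beside 11.2% and 12% of all genes tested. The 1 lower call was lost without replicate 2 at 7 dpf or replicate 1 at 5 dpf. Under the alternatives run 28 to 40 were called higher. DDX21, a nucleolar helicase, was at 662, 598 and 612 FPKM at 7 dpf, against 209, 117 and 237 FPKM at 5 dpf (log2 change 1.79, SE 0.25, adjusted p = 0.00263). SDAD1 was at 129, 123 and 103 FPKM at 7 dpf, against 22.7, 18.6 and 34.2 FPKM at 5 dpf (log2 change 2.25, SE 0.22, adjusted p = 6.82e-04). ncl, nucleolin, was at 258, 256 and 235 FPKM at 7 dpf, against 159, 114 and 141 FPKM at 5 dpf (log2 change 0.87, SE 0.15, adjusted p = 0.00639). npm1a, nucleophosmin, was at 49.6, 54.5 and 55.1 FPKM at 7 dpf, against 59.197, 42.7 and 32.2 FPKM at 5 dpf without a call. FBL, the methylase of ribosomal RNA, had a log2 change of −0.39 (adjusted p = 0.108, called by total reads or by voom).

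Of 81 tested ribosomal protein genes 6 were called higher and 1 lower (median 0.19), beside 11.2% and 12% of all genes tested. RPLP0 was at 5396, 5338 and 5392 FPKM at 7 dpf, against 3679, 5746 and 3826 FPKM at 5 dpf (adjusted p = 0.347, called without replicate 2 at 5 dpf). RPL3 was at 2875, 2865 and 2883 FPKM at 7 dpf, against 2329, 3164 and 2274 FPKM at 5 dpf (adjusted p = 0.563). Replicate 2 was the highest library of 5 dpf for both, and without it 22 members were called higher, against 2 to 4 without any other 1 library. The list's direction also rested on scaling: by total reads 8 members were called lower. Chaperone genes numbered 12 lower and 4 higher of 44 tested, but 8 and 7 without replicate 2 at 5 dpf and 4 and 3 without replicate 2 at 7 dpf. The shares of all genes over the 6 libraries were 12% lower and 11.2% higher. HSPD1, the mitochondrial chaperonin, was at 29.5, 23.5 and 21.5 FPKM at 7 dpf, against 63.8, 62.1 and 39.7 FPKM at 5 dpf (log2 change −1.12, SE 0.21, adjusted p = 0.00854). The stress-induced hsp70l was at 0.626, 0.401 and 0.439 FPKM at 7 dpf, against 0.874, 1.501 and 0.530 FPKM at 5 dpf without a call.

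Calls among skin, ionocyte and pigment genes went both ways. Of 40 tested keratin and epidermal genes 7 were called higher and 6 lower, beside 11.2% and 12% of all genes tested. The keratin gene listed as krt1-19e was at 1371, 1483 and 1119.8 FPKM at 7 dpf, against 2702, 4517 and 2724 FPKM at 5 dpf (log2 change −1.29, SE 0.24, adjusted p = 0.00834). The epidermal gene icn2 was at 259, 245 and 183 FPKM at 7 dpf, against 518, 721 and 511 FPKM at 5 dpf (log2 change −1.34, SE 0.20, adjusted p = 0.00321). krt4, of the outer skin layer, was at 2049, 1057 and 1189 FPKM at 7 dpf, against 1664, 1576 and 2219.6 FPKM at 5 dpf and was not called, and neither was krt17, at 1253, 1016 and 952 FPKM at 7 dpf, against 714, 897 and 812 FPKM at 5 dpf. krt18b was higher, with a log2 change of 1.38 (adjusted p = 0.0395, lost without replicate 1 or 3 at 7 dpf, without replicate 1 or 2 at 5 dpf or under 6 other settings).

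Ionocytes pump ions and ammonia across the skin, and of their 25 tested genes 5 were called higher and 3 lower. The second share equals the 12% of all genes, and 3 were higher and 2 lower without replicate 2 at 7 dpf. The ammonia channel gene RHCG (gene ID ENSDARG00000003203) was at 276, 175 and 123 FPKM at 7 dpf, against 52.6, 57.0 and 70.5 FPKM at 5 dpf (log2 change 1.6, SE 0.28, adjusted p = 0.00600). atp1a1a.4, a sodium pump subunit, was at 77.5, 65.0 and 59.12 FPKM at 7 dpf, against 34.5, 37.4 and 31.8 FPKM at 5 dpf (log2 change 0.94, SE 0.14, adjusted p = 0.00361). The carbonic anhydrase gene ca2 fell, at 22.8, 23.5 and 16.9 FPKM at 7 dpf, against 47.7, 46.6 and 31.1 FPKM at 5 dpf (log2 change −0.96, SE 0.21, adjusted p = 0.0139). Among 19 tested genes of melanin synthesis 3 were called lower and 0 higher, beside 12% and 11.2% of all genes. Up to 6 were lower under other settings. DCT was at 25.4, 23.5 and 27.5 FPKM at 7 dpf, against 44.6, 51.1 and 42.1 FPKM at 5 dpf (log2 change −0.84, SE 0.13, adjusted p = 0.00409). pmelb was at 1.11, 1.58 and 3.54 FPKM at 7 dpf, against 9.30, 13.5 and 10.23 FPKM at 5 dpf (log2 change −2.26, SE 0.33, adjusted p = 0.00290), while TYR, tyrosinase, had a log2 change of −0.27 without a call. The study's methods describe an inhibitor of tyrosinase, PTU, in the water to prevent pigmentation, and whether these larvae received it was not stated. Of 21 tested genes of iridophores and xanthophores 7 were called lower and 2 higher (4 and 1 without replicate 2 at 7 dpf). gch2, of pteridine synthesis, was at 45.9, 49.9 and 35.2 FPKM at 7 dpf, against 105.3, 92.4 and 73.5 FPKM at 5 dpf (log2 change −1.04, SE 0.19, adjusted p = 0.00662).

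The lists of other organs were small or gave few calls, and their counts are read beside the 11.2% higher and 12% lower of all genes. In the kidney list 1 of 19 tested members was called higher and 1 lower (0 of either without replicate 2 at 7 dpf), with CDH17 at 16.3, 13.8 and 13.1 FPKM at 7 dpf, against 18.06, 15.8 and 13.0 FPKM at 5 dpf without a call. Of 29 tested endothelial genes 4 were called higher and 1 lower. The higher count was 0 by total reads or without replicate 1 at 7 dpf and 1 without replicate 2 or 3 at 7 dpf or replicate 1 at 5 dpf. kdrl, a vascular growth factor receptor, was at 6.04, 5.50 and 6.72 FPKM at 7 dpf, against 5.32, 5.89 and 5.19 FPKM at 5 dpf without a call. plvapa was at 10.6, 9.64 and 9.57 FPKM at 7 dpf, against 6.50, 5.77 and 6.54 FPKM at 5 dpf (log2 change 0.63, SE 0.13, adjusted p = 0.0125, lost without replicate 1 at 7 dpf or under 3 other settings). Of 19 tested hair cell genes 1 was called, TMC1, of the mechanotransduction channel, at 1.17, 3.02 and 1.59 FPKM at 7 dpf, against 0.411, 0.185 and 0.329 FPKM at 5 dpf (log2 change 1.52, SE 0.30, adjusted p = 0.00982). With every 5 dpf value under 0.5 FPKM, TMC1 passed the filter through 7 dpf alone. In the swim bladder list 2 of 8 tested members were called higher and 2 lower (1 and 1 without any 1 library of 7 dpf or without replicate 2 at 5 dpf). The surfactant lipid transporter gene ABCA3 was at 33.5, 33.7 and 30.7 FPKM at 7 dpf, against 19.7, 14.4 and 21.6 FPKM at 5 dpf (log2 change 0.82, SE 0.17, adjusted p = 0.0115, lost as TPM or by total reads). anxa5b was at 23.2, 26.3 and 21.3 FPKM at 7 dpf, against 30.4, 61.3 and 44.9 FPKM at 5 dpf (log2 change −0.88, SE 0.24, adjusted p = 0.0334, lost without any 1 library of 7 dpf, without replicate 2 or 3 at 5 dpf or with no filter). Of 6 matched hatching gland genes, of the enzymes that open the egg shell, 2 passed the filter, 0 were called by limma or voom and 1 was higher at an unadjusted p under 0.05. Without replicate 3 at 5 dpf 1 was called.

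The age change of the siblings was set against that of the mutants over the same 22060 genes. In mutants 1263 genes were called higher and 1447 lower at 7 dpf. Of the 5107 genes called in siblings, 93.2% changed in the same direction in mutants. That share was not counted over all tested genes. Of the same 5107 genes 40.0% were also called in mutants in that direction, where 2710 of all 22060 were called in either direction. Of these 2710, 75.3% were also called in siblings in the same direction, beside 23.2% of all genes called in siblings in either direction. The median change of the genes called in siblings was 0.94 on the log2 scale in siblings and 0.54 in mutants, signed by the sibling direction. These genes were selected on the sibling values, which favours the siblings in that comparison. Across all tested genes the 2 changes had a Pearson correlation of 0.674, given as a description, since genes are not independent.

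A test of the difference itself (siblings minus mutants, an interaction term over 12 libraries) called 4 genes, 0.0181% of those tested, all at an adjusted p of 0.0482, with 2332 genes under an unadjusted p of 0.05. It found 0 to 26 genes under the alternatives, with 26 without replicate 3 of the mutants at 7 dpf and 0 or 1 without most other single libraries. Among all members of the gene lists only c9, of complement, passed it, so the lists were not shown to change differently in siblings and mutants, and their values are given side by side. For photoreceptors, whose median log2 change in siblings was −2.20 for cones and −1.46 for rods, the median in mutants was 0.16 and −0.03. OPN1SW, for which the log2 change in mutants was 0.51, was at 113, 115 and 37.8 FPKM at 7 dpf, against 41.4, 88.5 and 46.3 FPKM at 5 dpf in them (difference −3.96, SE 0.72, adjusted p = 0.162). GNGT2 had a log2 change of −0.52 in mutants (difference −2.50, SE 0.45, adjusted p = 0.162). For the cell cycle list the median was −1.96 in siblings and −1.29 in mutants, and for lipoproteins −1.09 and −2.15. apoa1b, which was not called in siblings, had a log2 change of −2.61 in mutants (difference 2.66, SE 0.49, adjusted p = 0.162).

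**Figure D5:**
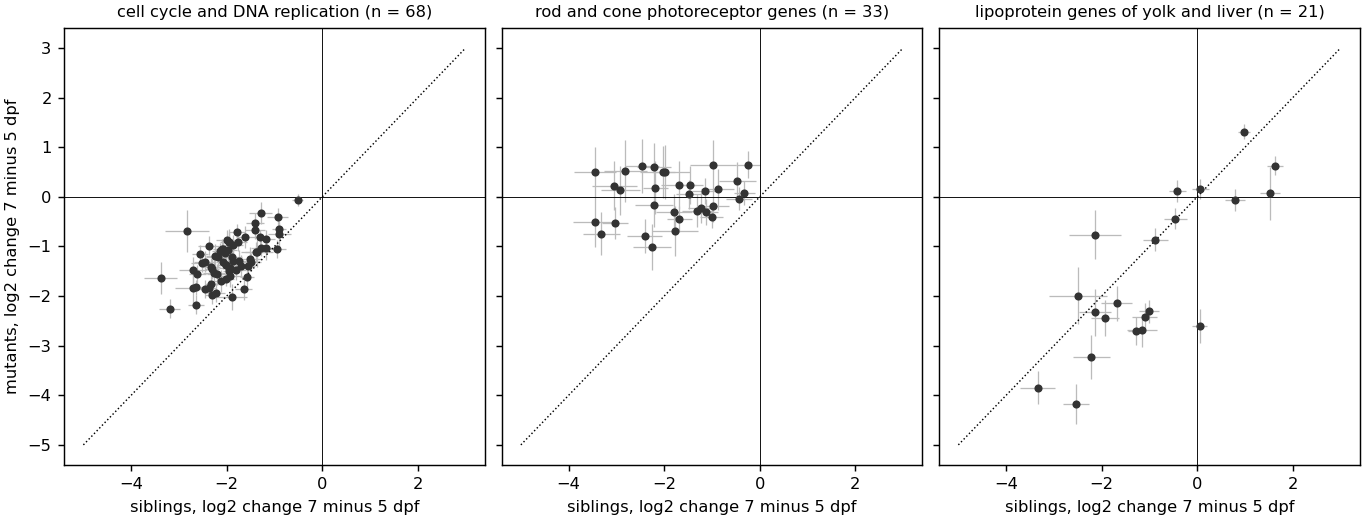
Log2 change at 7 dpf minus 5 dpf in siblings (x axis) and in mutants (y axis) for the tested members of 3 gene groups, with standard errors, a dotted line of equal change and n genes per panel. Cell cycle genes lie below 0 on both axes, while photoreceptor genes lie left of 0 in siblings and on both sides of 0 in mutants.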

How the data were processed

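Whole zebrafish larvae were measured by RNA sequencing, with 30 larvae pooled per library and 3 libraries per age and genotype. The study's methods give GRCz11 as the genome, and HISAT2 2.0.5 is credited to the submitters' processing notes. The authors deposited FPKM per gene for each library, while the counter, strand setting, annotation release and scaling are unstated in the sources used here, so a gene and an antisense neighbour may share reads. Every deposited FPKM value came out as a whole number of reads within 0.01, which gave the depth of 13403615 to 14902928 reads per sibling library and let read counts serve in an alternative.

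Genes that reached 0.5 FPKM in 3 or more of the 6 sibling libraries were tested on log2(FPKM + 0.5) with limma 3.58.1 (R 4.3.3), moderated with a trend on level, with 4 residual degrees of freedom, and Benjamini-Hochberg adjustment over all 22060 genes. A gene was called at an adjusted p under 0.05. The difference between siblings and mutants was an interaction term over 12 libraries, and calls within mutants came from the same fit. The scripts were tested on simulated data. Nothing states that the pools came from separate clutches, so p-values measure only the spread between these pools.

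Genes were eligible to be named if they were among the 15 largest changes in each direction (called, mean of at least 5 FPKM, ages not overlapping), among the 4 largest called changes of a gene list, among the first 3 symbols of a list or among the 5 genes of highest mean level. The 49 lists were chosen with earlier results of these data known, as were the groups compared, and are described by counts and medians alone. Some members of the lists are counted but not reported here by name. Alternatives were another pseudocount, other filters and scalings, voom on the recovered reads, library weights, all 12 libraries, a block on the replicate number and each library left out.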

Additional observations from a re-analysis of the deposited data

Results flagged for a closer look

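For 4 genes the change between the ages differed between siblings and mutants by the interaction term (limma over 12 libraries, adjusted p = 0.0482 for each). They were picked out after their values were seen.

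c9, a complement component made by the liver, was at 42.2, 45.1 and 53.5 FPKM in siblings at 7 dpf, against 28.8, 27.0 and 27.8 FPKM at 5 dpf. In mutants it was at 10.16, 10.34 and 6.75 FPKM at 7 dpf, against 21.1, 24.3 and 16.6 FPKM at 5 dpf. It was higher at 7 dpf in 3 of 3 sibling libraries and lower in 3 of 3 mutant libraries, and the difference, siblings minus mutants, was 1.89 on the log2 scale.

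PPP1R3C, a subunit that directs a phosphatase to glycogen, was at 24.2, 21.9 and 23.1 FPKM in siblings at 7 dpf, against 13.4, 12.4 and 15.4 FPKM at 5 dpf. In mutants it was at 10.8, 9.38 and 9.49 FPKM at 7 dpf, against 13.4, 14.6 and 15.2 FPKM at 5 dpf, and the difference was 1.25.

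jac9 was at 0.0582, 0.118 and 0.119 FPKM in siblings at 7 dpf, against 1.39, 1.88 and 1.92 FPKM at 5 dpf. In mutants it was at 0.828, 1.72 and 1.18 FPKM at 7 dpf, against 0.0494, 0.579 and 0.228 FPKM at 5 dpf, and the difference was −3.07.

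An unnamed model, 240 bases long and on an alternate sequence of chromosome 8, was at 1.58, 1.28 and 1.62 FPKM in siblings at 7 dpf and was listed at 0 in the other 9 libraries, with a difference of 1.99. At these levels jac9 and the unnamed model rest on few reads, and each passed the filter through a single age of the siblings. The number of genes passing this test was 0 without replicate 2 of the siblings at 5 dpf and 26 without replicate 3 of the mutants at 7 dpf.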

How the results depend on the processing

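The number of genes changed in siblings, 5107, stayed between 4079 and 6045 under the 13 alternatives that kept all sibling libraries (of these, Ensembl genes only and scaling without mitochondrial and top genes were chosen after seeing the data), and between 2879 (without replicate 2 at 7 dpf) and 4788 when 1 library was left out. Genes called higher numbered 1562 as TPM, 1488 by total reads and 1583 by voom, against 2467, and 1308 to 2337 with 1 library left out. Genes called lower numbered 1571 to 2451 with 1 library left out, against 2640. List members called numbered 404 to 571 with 1 library left out, against 588. That count is given for its stability alone, without the share of members tested. Of all genes tested 23.2% were called over the 6 libraries. The cause of these differences was not tested. For the difference between siblings and mutants, 0 genes passed with a pseudocount of 0.1, as TPM and with a replicate block within each age, and 0 to 26 with 1 library left out, against 4.

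With the replicate number as a block 4908 genes were called, 2354 higher and 2554 lower. Deviations of libraries with the same number correlated at 0.123, 0.039 and 0.111, and those with different numbers at −0.113 to 0.009. Each library correlated best with its own number, but deviations were taken from the mean of each age, so these values are linked. They cannot show whether libraries of the same number were paired, and the design states no pairing.

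Of the 291 named genes 210 were called, and 150 of these under every alternative. The depth, 13403615 to 14902928 reads, limits genes near 0.5 FPKM, where 1 read weighs most.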
